A study of Mus musculus with 6 samples.

Results

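Neural crest, glial and hindbrain regulators were read on arrays of the otic vesicle, the closed epithelial pouch from which the inner ear develops, from mouse embryos at embryonic day 11.5. The set holds 30 genes, chosen by symbol, of which 10 mark neural crest and its glial or pigment descendants and 20 mark the hindbrain. Taking every probe set that the platform annotation gives to one of these symbols alone gave 54 of the 45037 probe sets, 20 for the crest and glia genes and 34 for the hindbrain genes. Mest-KO embryos had lost Tbx1, a T-box transcription factor gene, through a conditional deletion with T-Cre, a recombinase expressed from regulatory sequence of the T gene and active in early mesoderm, and the controls were conditional heterozygotes that carried the same T-Cre. There were 3 arrays of each genotype, and the RNA on an array came from both ears of 3 pooled embryos, collected after dispase had been used to free the vesicle from the tissue around it. The comparison asks what loss of mesodermal Tbx1 does to the vesicle. None of the 30 genes is the one deleted.

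The neural crest is a population of migratory cells that leaves the dorsal edge of the neural tube. At the level of the ear it passes in front of and behind the otic vesicle and gives the glia of the cranial ganglia, pigment cells and part of the head mesenchyme. Sox10 and Foxd3 are transcription factors of crest cells and their glia, and Erbb3 is the receptor through which neuregulin from axons supports Schwann cell precursors. The hindbrain lies directly beside the vesicle, and its progenitors are arranged from dorsal to ventral by Pax, Zic, Olig and Nkx factors. These genes are therefore markers of the tissues next to the one that was dissected, although several of them have other sites of expression, such as Sox10 in the otic epithelium itself and Zic and Pax3 in paraxial mesoderm.

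All arrays had been scaled to one trimmed mean, which was 500.0 as deposited. The markers of otic epithelium were all above the brightness filter, 12 of 12 genes, with a mean log2 level between 11.1 and 11.4 on the 6 arrays. The intensity of Tbx1, which the epithelium itself also expresses, was 775 ± 116 (SD, n = 3) with the mesodermal deletion and 785 ± 105 (SD, n = 3) without it. Along the first principal component Mest-KO 3 stood at 36.4 and the other arrays between -10.3 and -1.77, and its median probe set was brighter, at 91.0 against 62.1 to 71.0. Xist read 16.1 in the pool Mest-KO 1 and at least 2331 in the others, and Eif2s3y, a Y-linked gene, read 12.1 in the pool control 2 and at least 1373 in the others. Differences are log2 values after quantile normalization, Mest-KO minus control, each with its standard error (SE) from limma, and intensities are the deposited ones.

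Sox10 and Erbb3 were read brightly on all arrays, with no more than a 1.23-fold range within a group, and most of the hindbrain genes were not read above the filter. A gene was tested when its brightest probe set had a mean beyond the 40th percentile over the probe sets, which is an intensity of 34.4. This held for 16 of the 30 genes, 7 of 10 crest and glia genes and 9 of 20 hindbrain genes, against 68.5% of all 18193 genes. Pax6 and Lmx1b lay just inside that limit, with geometric mean intensities of 36.3 and 36.4, and Zic4, Sox1 and Tfap2b just outside it, at 29.8, 29.8 and 28.5. With limma, 0 of the 16 tested members passed at an adjusted p under 0.05, as did 0 of 12462 genes (0%), and with a variance trend 0 of the 16 passed while 13 of all genes (0.104%) did. At an unadjusted p under 0.05 there was 1 member, Lhx1, or 6.25% of those tested, beside 5.14% of all genes in either direction and 2.91% that were lower like it. Lhx1 was also the 1 member whose groups did not overlap, beside 10.6% of all genes, or 5.85% with Mest-KO lower. The precision is limited by the 3 arrays a group. Of the tested members 8 were higher and 8 lower in Mest-KO, with a median log2 difference of -0.01, where 49.1% of all genes were higher. In such pooled tissue, fewer cells of a type and less RNA per cell cannot be told apart.

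**Figure D1:**
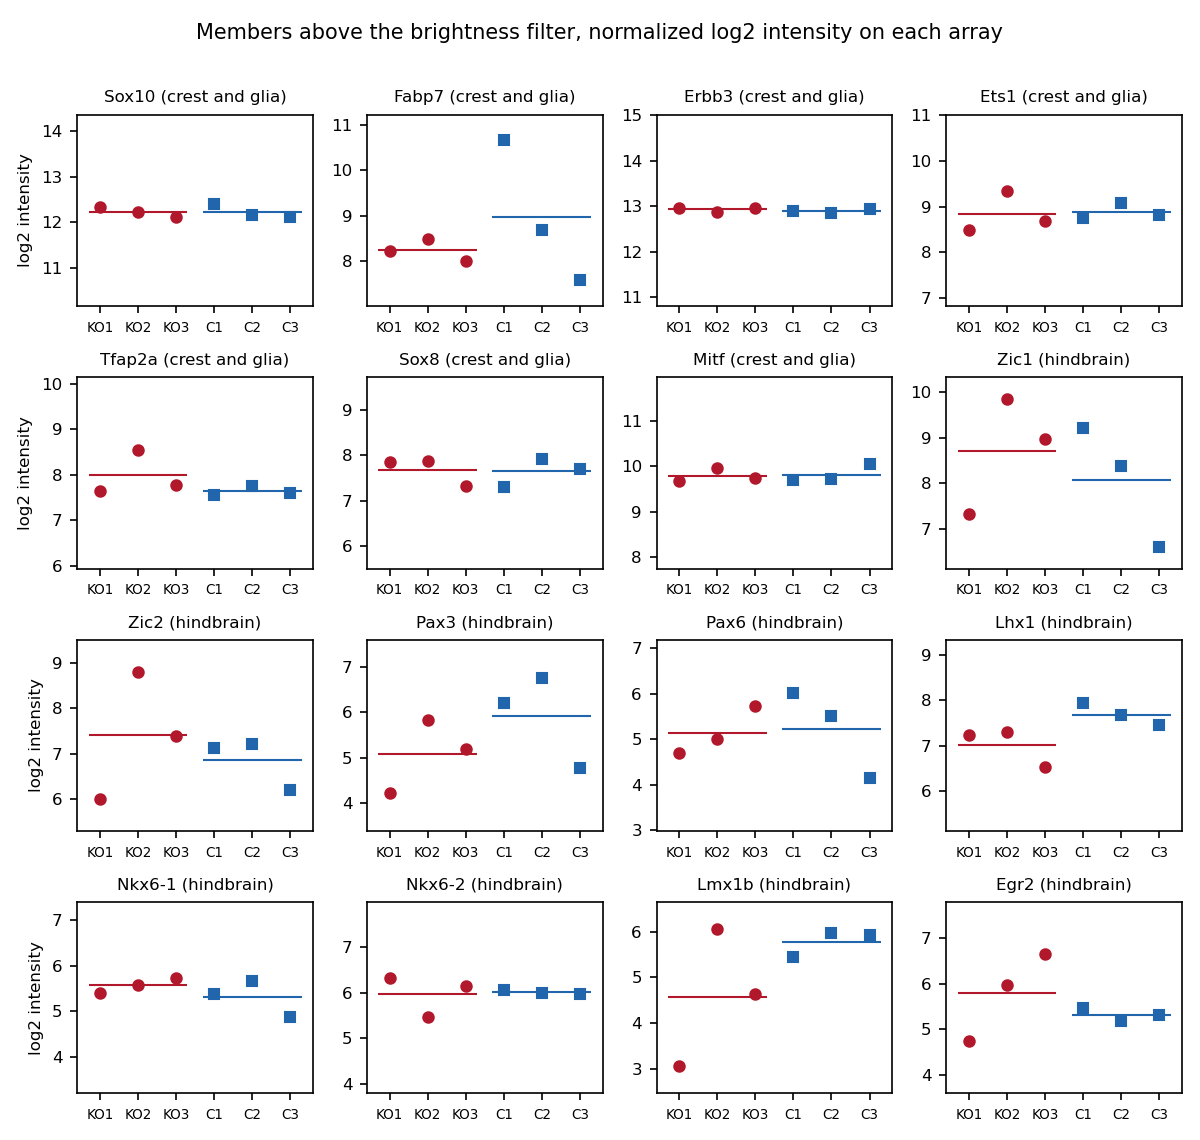
Normalized log2 intensity (vertical axis, the same span of log2 units in each panel) of the 16 members above the filter on the 3 Mest-KO arrays (KO1 to KO3, red circles) and the 3 control arrays (C1 to C3, blue squares), with the mean of each group as a line. Erbb3 and Sox10 are nearly level across all arrays, Zic1 spreads widely within both groups and Zic2 within Mest-KO, Fabp7 is high on control 1, and Lhx1 is the member whose groups do not overlap.

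Among the crest transcription factors, Sox10, which specifies the glial lineage of the crest, had intensities of 5138, 4744 and 4324 in Mest-KO and 5320, 4696 and 4509 in control. The arrays of both groups covered nearly the same range. The residual SD of Sox10 was larger than that of 42.3% of all tested genes, and of 77.2% of the genes in the same one of 4 classes of brightness. The log2 difference was 0.00 (SE 0.113), and its 95% interval ran from 0.827-fold to 1.21-fold. The other probe sets of Sox10 gave 0.11 and 0.29. The dimmest of them read 479, 513 and 488 in Mest-KO and 389, 456 and 351 in control, and its groups did not overlap, as was the case for 9.37% of all probe sets in either direction (limma adjusted p = 0.969). Sox10 is thus an example where 1 of 3 probe sets placed the groups apart by an amount that the brightest probe set did not show.

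Sox8, a relative of Sox10 in the same subfamily, read 234, 235.5 and 177 in Mest-KO and 159.8, 229 and 207 in control, a log2 difference of 0.04 (SE 0.214). The groups overlapped. Ets1, a factor of cranial crest cells that is also present in endothelium and mesenchyme, differed by -0.03 (SE 0.232), and its intensities lay between 362 and 651 with Mest-KO 2 highest. Its 2 further probe sets above the filter gave -0.23 and 0.14.

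Tfap2a, an AP-2 factor needed for crest formation and also present in surface ectoderm, read 201, 373 and 234 in Mest-KO and 189.6, 202 and 195 in control. The controls were close together, and the Mest-KO group was spread by the array Mest-KO 2. The log2 difference was 0.35 (SE 0.237, limma adjusted p = 0.909), with 0.25 at both other probe sets. The difference of Tfap2a was 0.08 without Mest-KO replicate 2 and 0.53 without Mest-KO replicate 1. Tfap2b, its close relative, lay below the filter and read 27.8, 133 and 20.3 in Mest-KO and 35.8, 19.4 and 11.9 in control, so that the same array was highest. Foxd3, a factor of crest before and during emigration, was also below the filter, with intensities from 1.23 to 31.2 and no order between the groups.

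Of the glial and pigment genes, Erbb3 was the steadiest member. It read 7842, 7568 and 7619 in Mest-KO and 7421, 7783 and 8157 in control, a log2 difference of 0.04 (SE 0.0769) with a 95% interval from 0.901-fold to 1.17-fold. Only 2.62% of all tested genes had a smaller residual SD, and 6.96% of those in its class of brightness. Its second probe set was below the filter, with intensities from 1.62 to 16.4. Mitf, the factor that directs crest cells to the pigment lineage and is also needed in other cell types, read 826, 1002 and 848 in Mest-KO and 839, 832 and 1036 in control, a difference of -0.02 (SE 0.135). Cdh19, a cadherin of Schwann cell precursors, lay below the filter on every array, between 5.15 and 16.2.

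Fabp7, a fatty acid binding protein of radial glia in the neural tube and of glia in ganglia, was the tested crest and glia gene with the largest difference. Its intensities were 303, 361 and 269.7 in Mest-KO and 1619, 396 and 191 in control. The array control 1 stood 4.09 times above the next array, and the other controls lay on both sides of the Mest-KO values. The log2 difference was -0.73 (SE 0.727, limma adjusted p = 0.910), and without control replicate 1 it was 0.11. Its residual SD was larger than that of 99.5% of all tested genes.

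The array on which Fabp7 was high was also high for En2, a homeobox gene of the midbrain and anterior hindbrain. En2 read 206 on control 1, 2.49 and 1.70 on the other controls and 7.08, 18.0 and 1.64 in Mest-KO, so that control 1 was 11.4 times the next array. Its mean lay below the filter. In the annotation of assembly GRCm38.p6 the nearest protein-coding neighbour of En2 on one side is Cnpy1, a gene known from the midbrain-hindbrain boundary, which was singled out after its values were seen. The brightest of its 3 probe sets read 214 on control 1 and from 9.20 to 41.7 on the others, and the remaining probe sets read 150.2 and 146 there, against at most 23.8 and 26.9 elsewhere. Each of the probe sets for En2 and Cnpy1 thus had its highest value on control 1. Sox1 and Olig3, a general neural progenitor gene and a gene of the most dorsal hindbrain progenitors, were also highest on control 1, at 101 and 57.7 against at most 44.9 and 21.7 on the others. The dimmer probe set of Sox1 did not show this, with 3.37 on control 1 and its highest value, 17.1, on Mest-KO 3. On the normalized scale control 1 was the highest array for 10 of the 30 members (33.3%), 7 of them hindbrain genes, and for 17.5% of all genes. Of these 10 members, 6 lay below the filter, and not all stood out. As deposited, control 1 was 1.04 times the next array for Sox10, 1.25 times for Lbx1 and 1.28 times for Lhx1. Pax6 and Pax7, also among the 10, were highest on Mest-KO 3 as deposited. Of 29 other hindbrain genes, 6 were highest on control 1 after normalization. Why this pool was high for these genes was not tested.

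**Figure D2:**
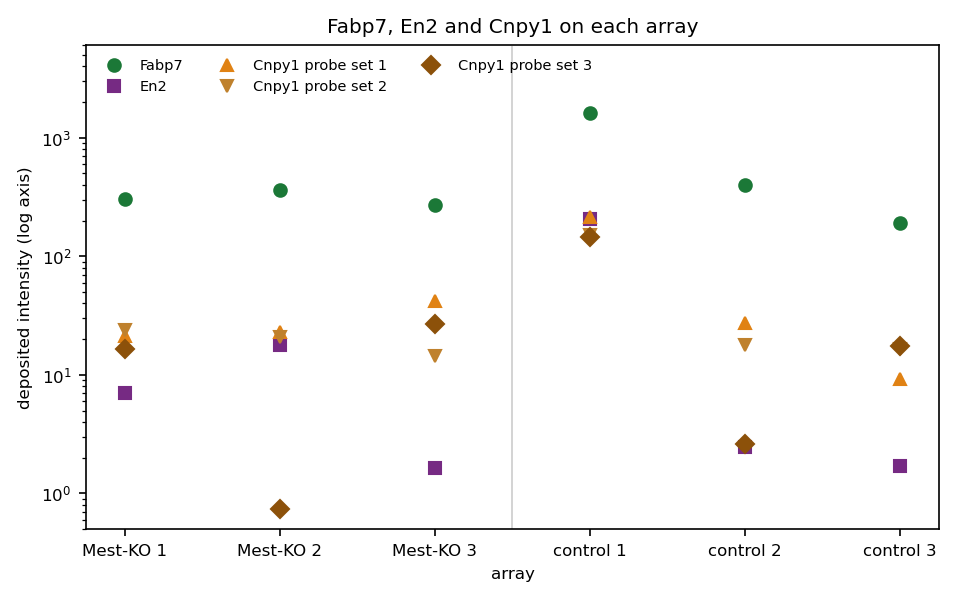
Deposited intensity on a log axis of Fabp7, En2 and the 3 probe sets of Cnpy1 on each of the 6 arrays, with the Mest-KO arrays left of the line and the controls right of it. All are highest on control 1, where En2 stands at 206 and Fabp7 at 1619, while the other controls lie within or near the range of the Mest-KO arrays.

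Fabp7, Zic1 and Lhx1, whose values turn on single arrays or separate the groups, are shown by sequence, with Zic4 as the neighbour of Zic1. This is a selection, and other members whose values turn on single arrays, such as Lmx1b, are not shown. Of the 30 members, 21 have an entry in the RefSeq promoter table of build GRCm38.p6. The 250 bases before the annotated start of Fabp7, at chr10:57784673-57784922 on the plus strand, are 54.8% G or C, against a median of 52.4% over all 32851 promoters of the table. Capitals mark matches to CCAAT or GGGCGG on either strand, the letters of the CCAAT box and of the GC box. TATAAA and ACAAAG, the latter a core bound by SOX factors, were searched in the same way. The listed sequence holds CCAAT on the minus strand at 2 places, starting 126 and 56 bases before the start, and none of the others.

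Fabp7: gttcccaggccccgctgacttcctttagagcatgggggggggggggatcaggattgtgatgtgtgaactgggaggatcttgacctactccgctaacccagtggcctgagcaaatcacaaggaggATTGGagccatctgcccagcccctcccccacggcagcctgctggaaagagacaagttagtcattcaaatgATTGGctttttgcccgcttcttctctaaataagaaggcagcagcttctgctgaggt

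In all promoters of this length, 33.8% hold CCAAT, 32.7% GGGCGG, 12.4% TATAAA and 16.5% ACAAAG on either strand. The matches are matches of letters and were not tied to the values.

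Among the dorsal hindbrain and roof plate genes, Zic1 and Zic2, zinc finger factors of the dorsal neural tube and the mesoderm beside it, varied widely between arrays. Zic1 and Zic2 are shown in full as a choice made after their values were seen. Zic1 read 158, 923 and 502 in Mest-KO and 607, 319 and 97.0 in control. The values covered 5.77-fold within Mest-KO and 6.11-fold within control on the normalized scale, and the groups overlapped throughout. The log2 difference of 0.64 (SE 0.853, limma adjusted p = 0.929) was smaller than its error, and it was -0.09 without control replicate 3. The second probe set of Zic1 read 47.1, 154 and 147 in Mest-KO and 173, 62.4 and 39.4 in control, a difference of 0.35. Zic2 read 60.2, 443 and 184 in Mest-KO and 142, 137 and 73.7 in control, a difference of 0.55 (SE 0.693) that became -0.15 without Mest-KO replicate 2. In both genes Mest-KO 2 was the highest array, and Mest-KO 1 and control 3 were the lowest pair. Zic5, a family member on the list of other hindbrain genes, read 58.3, 243 and 137 in Mest-KO and 107, 96.7 and 45.7 in control, with the same highest array and the same lowest pair. The residual SD of Zic1 was larger than that of 99.8% of all tested genes.

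Zic4, the neighbour of Zic1 on chromosome 9, is transcribed away from it, and its listed start lies 3204 bases from that of Zic1. It stayed below the filter, with intensities from 13.5 to 58.2 at its brighter probe set and a log2 difference of 0.00. Its dimmer probe set read 6.09, 2.55 and 18.8 in Mest-KO and 1.97, 0.958 and 1.08 in control. These groups did not overlap, but all 6 values lie below the filter and the brighter probe set did not show the order. The 250 bases before each start, with CCAAT and GGGCGG in capitals, differ in composition. That of Zic1, at chr9:91365769-91366018 on the minus strand, is 66.0% G or C with 27 CpG pairs, 2 matches to CCAAT and 2 to GGGCGG. That of Zic4, at chr9:91368722-91368971 on the plus strand, is 44.4% G or C with 4 CpG pairs and holds none of the 4 motifs. The median promoter has 6 CpG pairs.

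Zic1: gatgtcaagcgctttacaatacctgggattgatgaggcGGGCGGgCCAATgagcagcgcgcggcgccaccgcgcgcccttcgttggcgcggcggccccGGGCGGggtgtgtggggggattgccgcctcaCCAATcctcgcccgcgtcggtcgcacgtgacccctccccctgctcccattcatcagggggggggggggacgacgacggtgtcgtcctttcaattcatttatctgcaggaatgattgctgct
Zic4: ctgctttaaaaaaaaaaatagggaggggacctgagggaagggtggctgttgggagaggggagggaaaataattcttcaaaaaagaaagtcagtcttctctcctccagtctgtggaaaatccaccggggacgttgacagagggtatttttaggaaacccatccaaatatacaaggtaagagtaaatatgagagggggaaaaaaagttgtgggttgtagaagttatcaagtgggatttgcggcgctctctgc

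Pax3, a paired box factor of the dorsal neural tube, crest and somites, read 16.1, 54.4 and 54.5 in Mest-KO and 73.7, 96.0 and 24.9 in control. The highest and the lowest array of the controls lay on both sides of the brighter Mest-KO arrays. The log2 difference was -0.83 (SE 0.602, limma adjusted p = 0.909), and both dimmer probe sets, below the filter, gave -0.87 and -1.23. The difference of Pax3 was -0.40 without Mest-KO replicate 1 or without control replicate 2, and -1.40 without control replicate 3. Lmx1b, a LIM homeobox factor of the roof plate and isthmus, read 6.82, 64.6 and 39.0 in Mest-KO and 44.5, 54.2 and 60.6 in control. The controls were close together, and Mest-KO 1 stood far below all others. Its difference of -1.21 (SE 0.706, limma adjusted p = 0.909) was the largest of a tested member. The difference of Lmx1b was -0.44 without Mest-KO replicate 1 and -1.94 without Mest-KO replicate 2. Its second probe set, below the filter, gave 0.18.

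The remaining dorsal genes were not read above the filter. Wnt1, the ligand of the dorsal midline and the midbrain-hindbrain boundary, read 0.552, 1.99 and 5.28 in Mest-KO and 16.1, 17.0 and 1.00 in control. Control 1 and control 2 lay above every Mest-KO array, and control 3 did not. En1, a marker of ventral interneurons and of the boundary region, behaved alike, with 0.777, 4.95 and 8.24 in Mest-KO and 15.5, 14.7 and 3.98 in control. Pax7, a partner of Pax3 in dorsal progenitors, ranged from 1.91 to 26.6, and Olig3 from 0.987 to 57.7.

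Genes of ventral and general neural progenitors were dim and had no order between the groups. Pax6, a factor of the ventricular zone, read 22.2, 29.0 and 72.1 in Mest-KO and 64.9, 39.2 and 16.03 in control, a difference of -0.09 (SE 0.513). The 4 dimmer probe sets of Pax6 gave values from -0.83 to 0.63. Nkx6-1, a homeobox factor of the ventral progenitors, read 37.4, 45.3 and 71.9 in Mest-KO and 42.4, 43.3 and 27.0 in control, a difference of 0.26 (SE 0.209, limma adjusted p = 0.909). It was 0.046 without control replicate 3 and 0.44 without control replicate 2. Nkx6-2, its relative, differed by -0.04 (SE 0.221) within a range of 41.8 to 90.3. Olig2, the motor neuron and oligodendrocyte factor, stayed between 3.09 and 28.2 and below the filter. On the array Mest-KO 3 the control probe sets for Bacillus transcripts also had their highest median, 14.4 against 1.85 to 5.62 on the others. Mest-KO 3 was the highest array for 8 members as deposited (Zic4, Pax6, Pax7, Olig2, Lhx5, Nkx6-1, Nkx6-2 and Egr2) and for 5 after normalization (Erbb3, Olig2, Lhx5, Nkx6-1 and Egr2). After normalization it was highest for 3 of the 16 tested members (18.8%), near the 16.8% of all genes tested. The share of all genes as deposited was not counted. The part of the Bacillus background in these values was not tested.

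Lhx1 was the member nearest to a difference between the groups. It is a LIM homeobox factor of hindbrain and spinal interneurons. Its intensities were 148, 156 and 112 in Mest-KO and 245, 191 and 174 in control. Every Mest-KO array lay below every control. The log2 difference was -0.67 (SE 0.235), with an unadjusted p of 0.0283 and a limma adjusted p of 0.909, and of 0.717 with a variance trend. It kept its sign without each array, from -0.80 to -0.42. The second probe set of Lhx1, also above the filter, read 54.6, 60.8 and 57.8 in Mest-KO and 55.8, 56.6 and 42.2 in control, a difference of -0.04 (SE 0.232), and thus did not show the difference. The promoter of Lhx1, at chr11:84525535-84525784 on the minus strand, is 64.8% G or C and holds 1 match to CCAAT, on the minus strand.

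Lhx1: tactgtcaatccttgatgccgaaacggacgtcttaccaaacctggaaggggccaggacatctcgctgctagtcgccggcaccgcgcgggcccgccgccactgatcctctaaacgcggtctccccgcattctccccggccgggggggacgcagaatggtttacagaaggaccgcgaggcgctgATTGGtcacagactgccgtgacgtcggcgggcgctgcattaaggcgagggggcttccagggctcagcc

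The other neuronal regulators were below the filter. Lhx5, a LIM homeobox gene close to Lhx1, ranged from 5.11 to 59.0. Lbx1, a factor of dorsal interneurons, ranged from 1.65 to 17.9, and its second probe set read higher on each Mest-KO array than on the controls, at 5.03 to 16.5 against 2.24 to 3.96. All of these values lie below the filter, and the brighter probe set of Lbx1 did not show that order. Of all probe sets above the filter, 4.17% had groups apart with Mest-KO higher. Phox2a, a factor of visceral and noradrenergic neurons, ranged from 5.90 to 26.0. Of the genes of position along the hindbrain, Egr2, which marks rhombomeres 3 and 5 and later myelinating Schwann cells, read 22.9, 61.1 and 119 in Mest-KO and 44.6, 31.5 and 37.5 in control. The controls were alike, and the Mest-KO arrays lay both below and above them. The log2 difference was 0.47 (SE 0.458, limma adjusted p = 0.909). It was 0.04 without Mest-KO replicate 3 and 1.00 without Mest-KO replicate 1. The second probe set of Egr2, below the filter, gave 1.05 and was highest on Mest-KO 2.

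**Figure D3:**
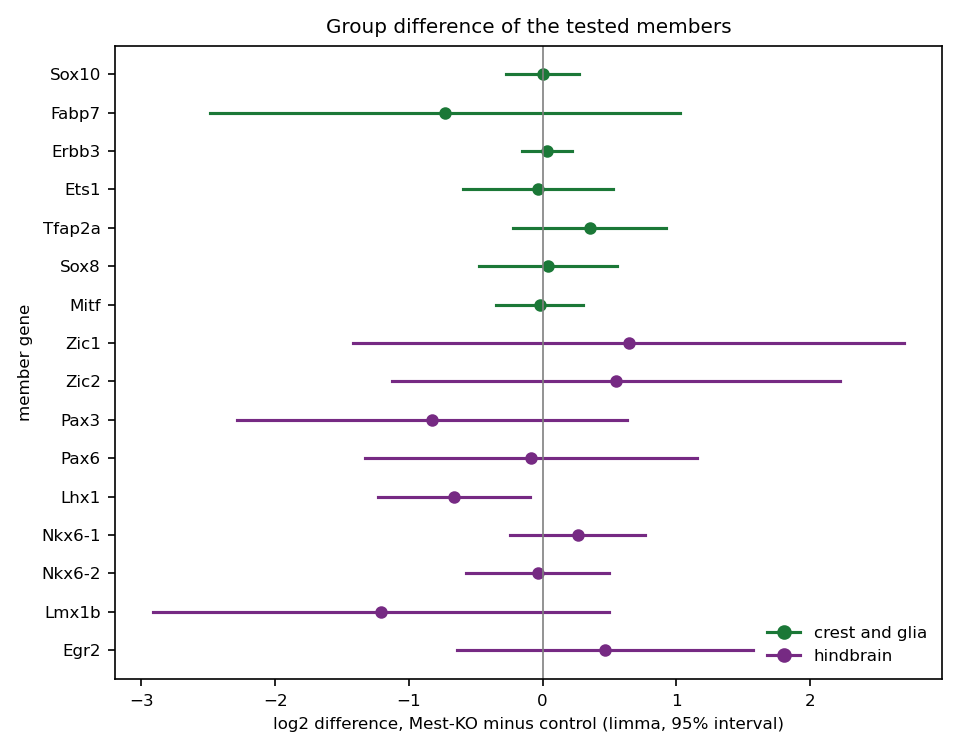
Log2 difference between Mest-KO and control (horizontal axis, 0 marked by a line) for the 16 tested members, with the 95% interval of the limma fit, crest and glia genes in green and hindbrain genes in purple. The intervals of Erbb3 and Sox10 are narrow and centred near 0, those of Zic1, Zic2, Fabp7, Pax3 and Lmx1b are wide, and that of Lhx1 does not reach 0 before adjustment.

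A range above 2-fold within a group was seen for 1 of 7 crest and glia genes, Fabp7, and for 6 of 9 hindbrain genes. Of the 9 hindbrain genes 8 were in the dimmest of the 4 brightness classes, where SDs are larger, and no crest or glia gene was. Within their own classes, the crest and glia genes other than Erbb3 had a residual SD above that of 77.2% (Sox10) to 99.8% (Fabp7) of genes. Among the hindbrain genes Lhx1, Nkx6-1 and Nkx6-2 were at 49.8%, 40.8% and 45.3%, and the others from 90.3% to 99.9%. The median log2 difference was 0.00 for the crest and glia genes, with 4 higher and 3 lower, and -0.04 for the hindbrain genes, with 4 higher and 5 lower, beside 0.00 for all genes tested. Over probe sets, 15 of the 25 member probe sets above the filter were higher, where 48.3% of all probe sets were, and 10 lower, and 0 of them passed with limma, as did 0 of all 27022 (0%). With a variance trend 14 of all probe sets (0.0518%) passed, none of them a member's. At an unadjusted p under 0.05 there was 1, the brighter probe set of Lhx1, against 3.98% of all probe sets, or 2.25% that were lower. Above the filter, the groups did not overlap for 1 member probe set with Mest-KO lower, that of Lhx1, against 5.2% of all, and for 1 with Mest-KO higher, the third of Sox10, against 4.17% of all. The dimmer probe sets of Zic4 and Lbx1, below the filter, are not in this count. Of the 16 members with more than 1 probe set, 5 had probe sets of both signs, and among the 6 with more than 1 above the filter there were 2 such genes, Ets1 and Mitf.

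The level of the hindbrain genes moved between the pools of each group. Their mean log2 level was 5.45, 6.65 and 6.33 in Mest-KO and 6.54, 6.49 and 5.70 in control, so that Mest-KO 1 and control 3 were low and the groups overlapped. The crest and glia genes moved less, from 9.52 to 9.90 in Mest-KO and from 9.54 to 9.89 in control. The 12 mesenchyme markers were all above the filter and stood at 7.63, 9.00 and 8.59 in Mest-KO and at 8.57, 8.22 and 7.52 in control. The arrays lowest in the hindbrain members, Mest-KO 1 and control 3, were also those lowest in mesenchyme markers, and Mest-KO 2 was highest in both. This held for the mean of the 4 tested dorsal genes, at 5.16, 7.63 and 6.55 in Mest-KO and 7.01, 7.08 and 5.88 in control. The 3 ventral and general progenitor genes were highest on Mest-KO 3, at 5.86, with Mest-KO 2, at 5.35, below Mest-KO 1, at 5.47. Lhx1 was lowest on Mest-KO 3, and Egr2 was highest on it. The 8 other hindbrain genes above the filter stood at 7.43, 7.45 and 7.30 in Mest-KO and 7.29, 7.46 and 7.01 in control. Twist1, a factor of mesenchyme and of migrating crest, read 228, 720.3 and 353 in Mest-KO and 476, 348 and 149.6 in control. As deposited, its arrays fell in the same order as those of Zic1. After normalization Twist1 had control 2, at 8.50, above Mest-KO 3, at 8.44, and Zic1 had these arrays the other way round. Twist1 stands in both the mesenchyme list and the list of other crest genes. The ganglion neuron markers, 11 of 12 above the filter, ranged from 7.69 to 8.38 in Mest-KO and from 7.80 to 8.15 in control. Otic epithelium markers stood at 11.44, 11.12 and 11.27 in Mest-KO and at 11.31, 11.42 and 11.33 in control. They were thus highest on Mest-KO 1 and lowest on Mest-KO 2. Endothelial markers, 3 of 7 above the filter, stood at 5.86, 6.61 and 6.21 in Mest-KO and at 6.21, 6.15 and 5.17 in control. As for the mesenchyme markers, Mest-KO 1 and control 3 were lowest and Mest-KO 2 was highest. Muscle markers, 2 of 6 above the filter, ranged from 5.33 to 5.95 in Mest-KO and from 4.98 to 5.91 in control. The part of mesenchyme or endothelium carried along with a vesicle in the values of the hindbrain genes was not tested.

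**Figure D4:**
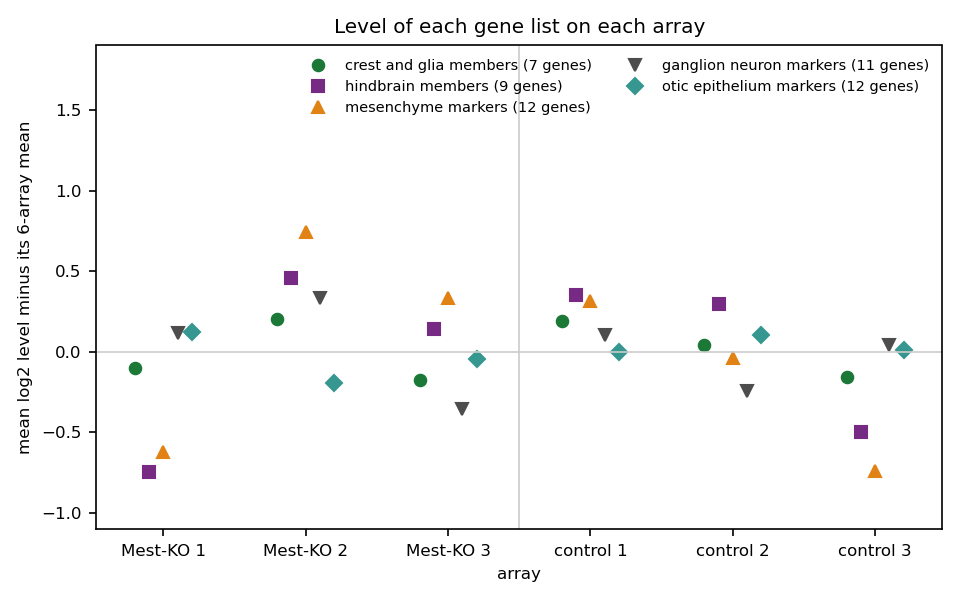
Mean log2 level of each gene list on each array, minus the mean of that list over the 6 arrays (vertical axis), for the tested crest and glia members, the tested hindbrain members and the markers of mesenchyme, ganglion neurons and otic epithelium. The hindbrain members and the mesenchyme markers are lowest on Mest-KO 1 and control 3 and highest on Mest-KO 2. The otic epithelium markers move over a narrower span, highest on Mest-KO 1 and lowest on Mest-KO 2.

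Further genes of crest and glia were read from a list that was written with earlier results known. Of its 28 genes 25 were matched and 22 lay above the filter. With Mest-KO 14 were higher and 8 lower, and 0 passed with limma. An unadjusted p under 0.05 was found for 5 of the 22 (22.7%), against 5.14% of all genes, and Snai2, Cdh6 and Rxrg were among the results already known. Ngfr, the low-affinity neurotrophin receptor of crest and glial precursors, read 183, 174 and 322 in Mest-KO and 145, 123 and 130.5 in control, a log2 difference of 0.65 (SE 0.227, limma adjusted p = 0.909). Every Mest-KO array lay above the controls, and Mest-KO 3 was the highest. Its other probe sets, below the filter, gave -0.17 and -0.56. Snai2, a zinc finger factor of migrating crest and of mesenchyme, read 622, 731 and 637 in Mest-KO and 510.1, 439 and 389.7 in control, a difference of 0.56 (SE 0.124) with 0.46 at its second probe set. Cdh6, a cadherin of early crest, read 199, 174 and 243 in Mest-KO and 105, 143 and 117 in control, a difference of 0.69 (SE 0.178) with 0.46 at its second probe set. Rxrg, a retinoid receptor gene, and Crabp1, a retinoic acid binding protein gene of crest and hindbrain, were lower by -0.67 (SE 0.165) and -0.35 (SE 0.118). None of these values passed over all genes, with adjusted p from 0.659 to 0.909, and members of this list moved in both directions.

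Of 35 other hindbrain genes 29 were matched, and 8 of these (27.6%) lay above the filter. Among the 8, 0 passed with limma and 0 had an unadjusted p under 0.05. Dbx1, Ptf1a, Atoh1, Barhl1, Tlx3 and Foxa2, which mark particular progenitor or neuron types of the hindbrain, were among the 21 below the filter. Irx3, Lmx1a and Gbx2, which are above it, are also genes of the otic vesicle. Evx1, Dmrt3, Wnt3a, Sox3 and Zic5 were above it too, with mean log2 levels of 5.71, 6.06, 5.25, 5.65 and 6.64. Melanocyte markers were above the filter for 3 of 6 genes. Kit, the receptor that pigment cell precursors need and that other cells also carry, read 395, 449 and 338 in Mest-KO and 312, 299.7 and 256 in control, a difference of 0.41 (SE 0.144, limma adjusted p = 0.909). Dct and Pmel, enzymes and structural proteins of melanin formation, differed by -0.31 and -0.65, and Tyr, Tyrp1 and Mlana were below the filter.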

How the data were processed

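RNA of 6 pools was labelled as biotinylated cRNA and hybridised to Affymetrix mouse arrays, per the labels' protocols. The program named in the submitters' processing notes is Affymetrix Expression Console 1.1. The deposited intensities are linear probe set values, which the values show to be scaled to a trimmed mean of 500.0 on each array. Not given in the sources used here are the summarisation of probes, the background correction and the build. The table holds no detection calls. The arrays of a group are called biological replicates in the labels.

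From the 45101 probe sets 64 controls were left out. The platform annotation gave 1 symbol to 34945 probe sets, several to 932, and left 9160 unnamed here. A floor of 1 was set before taking log2, followed by quantile normalization of the arrays. For each of 18193 genes the probe set brightest on average stood for the gene, and it was tested when that mean exceeded the 40th percentile, which left 12462 genes and 27022 probe sets. The comparison used lmFit and eBayes of limma 3.58.1, with no variance trend, run under R 4.3.3. The p-values were adjusted by Benjamini-Hochberg over all genes or all probe sets, with a threshold of 0.05. Values of members below the filter come from the files or from a fit without the filter and carry no call. The fit was tested on simulated data.

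The members and lists were chosen with earlier results of these data known. All members are named. Values of every array are given for tested members with an unadjusted p under 0.10, the leading pair by size within a role, and Sox10, Foxd3, Erbb3, Pax3, Lmx1b and Egr2 where tested. Values by array of Mitf, Zic1, Zic2 and members below the filter were chosen after they were seen. Of the other lists, the crest and glia genes (5) and the melanocyte gene (1) with an unadjusted p under 0.05 are named. Such genes of the ganglion neuron, otic epithelium and mesenchyme lists are not. Twist1 and Zic5, given by array, do not meet that limit and were picked outside this rule. The replicate numbers did not pair the arrays. Alternatives were other filters, normalizations, floors, probe set rules and thresholds, a variance trend, the replicate number as a block, and left-out arrays, where the choice of probe sets and the filter still rest on 6 arrays. Promoter sequences are from RefSeq, build GRCm38.p6. Figures were drawn with matplotlib 3.10.9.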

Additional observations from a re-analysis of the deposited data

Results flagged for a closer look

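Control probe sets for Bacillus transcripts enter none of the comparisons. Their median on Mest-KO 3 was an intensity of 14.4, above the 5.62 that was the highest such median among the control arrays. The part of this in the values of dim members was not tested.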

How the results depend on the processing

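No member was called at an adjusted p under 0.05 under any alternative run, over 239 values of the 16 tested members. Of these values 32 had a sign other than the reported one, and 5 members (Tfap2a, Lhx1, Nkx6-1, Lmx1b and Egr2) kept their sign throughout. In the main fit, 1 member and 1 member probe set passed at an unadjusted p under 0.05, both Lhx1. Under some alternatives Egr2, Lmx1b and Pax3 also had an unadjusted limma p under 0.05. Examples are 0.0058 for Egr2 without Mest-KO replicate 1, 0.0086 for Lmx1b with median centring and 0.031 for Pax3 without control replicate 3. Lhx1 did not reach it under others, such as 0.171 with the mean of its probe sets. Causes were not tested, except where the setting itself gives one.

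Genes called over all genes, reported as 0, came to 13 with limma's trend, 25 with median centring, 7 when a 60th percentile filter left fewer genes to test, 1 with the most variable probe set, 7 at an adjusted p under 0.10 and 641 at an unadjusted p under 0.05. Probe sets called, also reported as 0, came to 1 without a filter, 9 at the 60th percentile, 15 with median centring, 14 with the trend, 1 at 0.10 and 1076 unadjusted. Both counts were 0 with each array left out. Median centring moved the median of all genes to -0.14, so its changes are read against that. With it Sox10 gave -0.18, Erbb3 -0.17 and Sox8 -0.027. With the deposited scaling alone Sox10 gave -0.032, Erbb3 -0.020, Nkx6-2 0.11 and Pax6 0.064. With the pools of both sexes only, Sox10 gave -0.089, Ets1 0.24, Pax3 0.021 and Pax6 0.28. Mitf gave 0.047 with the mean of its probe sets and 0.12 with the most variable one.

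With an array left out the ranges were -0.057 to 0.092 for Sox10, -0.28 to 0.15 for Ets1, -1.43 to 0.11 for Fabp7, -0.11 to 0.089 for Mitf, -0.13 to 0.22 for Sox8, -0.21 to 0.22 for Nkx6-2, -0.63 to 0.31 for Pax6, -1.40 to -0.40 for Pax3, 0.046 to 0.44 for Nkx6-1, -0.088 to 1.34 for Zic1 and -0.15 to 1.24 for Zic2. Further ranges were 0.016 to 0.063 for Erbb3, 0.080 to 0.53 for Tfap2a, -1.94 to -0.44 for Lmx1b and 0.039 to 1.00 for Egr2. The median of the crest and glia members ran from -0.05 to 0.06, and that of the hindbrain members from -0.12 to 0.30, the latter without control replicate 1. With the replicate number as a block 0 genes and 0 members were called. Arrays of the same number did not deviate together (r = -0.109, -0.00832 and -0.00734 over all tested genes), so the block is not a pairing. The number of arrays and the low signal of 14 members limit the precision.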

Other observations

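These counts were made after the values had been seen. On control 1, 7 genes had an intensity more than 4 times that on any other array and above the filter's intensity of 34.4. Of the 7, En2 and Fabp7 are members, and the others are Cnpy1, Acta2, Hoxb5, Oxgr1 and Ccdc105. Acta2, smooth muscle actin, read 225 on control 1 and at most 43.4 elsewhere, and Hoxb5, a Hox gene of the posterior hindbrain and trunk, read 53.5 and at most 12.7. There were at most 1 such genes on each of Mest-KO 1, Mest-KO 2, control 2 and control 3, and 115 on Mest-KO 3.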
